A study of Mus musculus with 6 samples.

Results

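E2F transcription factors and the pocket proteins that bind them were measured by RNA-seq in mouse embryonic fibroblasts (MEF) after passage through narrow pores. The 10 genes chosen were E2f1, E2f2, E2f3, E2f4, E2f5, E2f7, E2f8, Rb1, Rbl1 and Rbl2, out of 55335 genes in the deposited table, and their gene identifiers were matched to these symbols. Ctrl cells were parental MEF cells of wild-type (WT) genotype, and Confine cells were MEF cells of the same genotype that had crossed a membrane with 3 μm pores and were collected below it after 15 h. Culture on the membrane, selection of the cells that cross and passage through the pores cannot be told apart in this design. The paper's transwell method, described for wider pores, seeds cells without serum above medium with serum. If the 3 μm assay used the same media, serum cannot be told apart from passage either. Each group has 3 deposited columns, but the columns of Confine replicates 1 and 2 are identical throughout the table, so they entered once, as the repeated Confine library, which leaves 3 Ctrl and 2 Confine libraries. Values of a gene are given in the order Ctrl replicates 1, 2 and 3, the repeated Confine library, and Confine replicate 3.

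E2F factors bind the promoters of genes for DNA synthesis and cell division. E2f1, E2f2 and E2f3 are known as activators. E2f4 and E2f5 act mainly as repressors together with the pocket proteins p107 (Rbl1) and p130 (Rbl2), and E2f7 and E2f8 are atypical repressors that need no pocket protein. The retinoblastoma protein (Rb1) holds the activators in check until cyclin-dependent kinases (CDKs) phosphorylate it, and in resting fibroblasts p130 and E2f4 join the MuvB proteins in the DREAM complex, which keeps cell cycle genes silent.

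The libraries held from 22287210 to 32537550 counts, and 3 counts correspond to 0.101 to 0.128 CPM (counts scaled to a fixed library total) after TMM normalization. Of 10 fibroblast markers, Col1a1, Col1a2, Vim and Fn1 were abundant, and Col3a1, Pdgfra and Pdgfrb were detected in every library. Thy1 and Lum had under 10 counts in every library, and the matrix gene Dcn had at most 27. The fibroblast label rests on the collagen genes, Fn1, Vim, Pdgfra and Pdgfrb. The summed CPM of the fibroblast markers was 8728 to 9586 in Ctrl and 15720 to 16500 in Confine. In edgeR's test, described below, 5 of the 7 markers tested were higher, beside 12.8% of all tested genes, and 0 were lower. Pdgfrb, with a log2 fold change of -0.36, did not pass. The 8 leukocyte markers summed to 7.23 to 8.40 CPM in Ctrl and 18.4 to 25.9 CPM in Confine, with Cd68 (log2 fold change 2.67) and Csf1r (1.45) higher in Confine and Lyz2 (-2.64) lower, and the defining markers Ptprc and Cd3e had at most 2 counts. The 6 epithelial markers summed to 0.276 to 0.529 CPM in Ctrl and 0.169 to 0.675 CPM in Confine. The 4 endothelial markers summed to 0.298 to 0.718 CPM in Ctrl and at most 0.159 CPM in Confine. The part of these marker differences in the results below was not tested. In bulk RNA, fewer cells in a cell cycle phase and less RNA per cell cannot be told apart.

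All 10 genes passed the filter on low counts. E2f2, E2f7, E2f8 and Rbl1 fell in Confine, by 2.54 to 3.55 times, and 0 of the 10 rose past the test, which was edgeR's quasi-likelihood test with a Benjamini-Hochberg adjusted p under 0.05 over all 15881 tested genes. Among all tested genes, 10.2% passed the test as lower and 12.8% as higher, or 1619 and 2035 genes. Scaled by library size without TMM, more genes were lower (2805) than higher (1444). The other 6 genes did not pass it. With the study's additional cutoff of an absolute log2 fold change above 1.5, E2f2 alone remained, beside 3.11% of all tested genes lower and 4.89% higher, and E2f8, with -1.49, lay just short of the cutoff. In each of the 4 genes that fell, both Confine libraries lay below every Ctrl library, as they did in 23.6% of all tested genes, and in Rb1 both lay above, as in 25.9% of all tested genes. The other 5 genes overlapped between the groups. The median log2 fold change of the 10 genes was -0.11, and that of all tested genes was -0.0021.

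The promoters of the genes that moved are shown here because the E2F family is known to bind promoters of its own members. RefSeq (GRCm38.p6) gave windows of 300 bases, from 250 before to 50 after a transcription start, for 7 of the 10 genes. Each window was searched on both strands for TTTCGCGC, TTTGGCGC, TTTCCCGC and TTTGCCGC, the spellings of the E2F motif, and for TTTGAA, the core of the cell cycle homology region bound through MuvB. An E2F spelling was found for 4 of the 7 genes, E2f2, E2f3, E2f7 and Rbl1, and in 2.6% of the 27025 genes with a window. Those 27025 include genes that were not tested. Among the 10303 tested genes with a window, 483 had an E2F spelling. E2f2, E2f7 and Rbl1 were lower in Confine, whereas E2f3, which holds the motif as well, did not pass the test. The second windows of E2f2 and E2f3, 8388 and 1672 bases downstream of the GENCODE starts, hold none of these spellings. Counts per gene do not separate the starts. E2f8 was lower in Confine and has none of these spellings in its window, and neither has Rbl2. The E2f1 window surrounds a start 466 bases downstream of the GENCODE start of the gene, so it does not cover the annotated main promoter. A match is a run of letters only and was not tested as a binding site. The E2F spelling is in capitals in each sequence, on the strand of the gene, so that GCGGGAAA marks TTTCCCGC on the other strand.
E2f2 promoter, chr4:136172024-136172323, + strand: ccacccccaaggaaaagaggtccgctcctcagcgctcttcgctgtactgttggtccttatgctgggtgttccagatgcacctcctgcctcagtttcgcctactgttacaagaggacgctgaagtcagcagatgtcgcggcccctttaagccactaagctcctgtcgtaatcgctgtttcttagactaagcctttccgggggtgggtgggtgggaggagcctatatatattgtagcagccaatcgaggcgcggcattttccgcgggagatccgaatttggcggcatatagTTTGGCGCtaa
E2f7 promoter, chr10:110745189-110745488, + strand: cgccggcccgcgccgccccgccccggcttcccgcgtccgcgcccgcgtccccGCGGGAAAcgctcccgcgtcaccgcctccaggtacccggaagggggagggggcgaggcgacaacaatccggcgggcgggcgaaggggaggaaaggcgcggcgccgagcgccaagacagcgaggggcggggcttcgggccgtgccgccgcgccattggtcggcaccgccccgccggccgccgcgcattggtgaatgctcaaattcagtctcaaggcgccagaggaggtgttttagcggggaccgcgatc
Rbl1 promoter, chr2:157204485-157204784, - strand: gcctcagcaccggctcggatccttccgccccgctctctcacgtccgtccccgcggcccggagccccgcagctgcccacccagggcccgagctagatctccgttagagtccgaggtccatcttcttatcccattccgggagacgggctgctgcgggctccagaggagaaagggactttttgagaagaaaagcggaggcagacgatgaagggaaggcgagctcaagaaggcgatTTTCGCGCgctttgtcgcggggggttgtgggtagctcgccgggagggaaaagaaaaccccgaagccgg
E2f3 promoter, chr13:29986014-29986313, - strand: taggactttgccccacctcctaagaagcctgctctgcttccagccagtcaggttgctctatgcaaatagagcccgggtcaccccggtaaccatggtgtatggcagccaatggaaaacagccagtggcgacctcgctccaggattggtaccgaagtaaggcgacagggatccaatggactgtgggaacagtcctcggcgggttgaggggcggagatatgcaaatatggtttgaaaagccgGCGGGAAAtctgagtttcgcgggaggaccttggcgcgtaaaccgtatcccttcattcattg
E2f8 promoter, chr7:48881547-48881846, - strand: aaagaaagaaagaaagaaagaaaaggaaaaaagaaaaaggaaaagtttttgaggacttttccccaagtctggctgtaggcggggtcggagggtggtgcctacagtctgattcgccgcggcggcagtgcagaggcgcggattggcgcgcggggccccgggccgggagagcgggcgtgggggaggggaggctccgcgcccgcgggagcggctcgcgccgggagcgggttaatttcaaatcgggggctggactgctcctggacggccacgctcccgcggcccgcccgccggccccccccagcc
Counted with the RefSeq start as +1, the first base of the match lies at +40 in E2f2, at position -198 in E2f7, at position -18 in Rbl1 and at position -11 in E2f3. In E2f2 that start lies at -120 bases from the GENCODE start, so its window ends before the annotated gene begins. TTTGAA was found in windows of E2f3, E2f8 and Rbl2, and in 20.2% of all genes with a window. Among the 10303 tested genes with a window, 1494 had it. In E2f2 only the second window, 8388 bases downstream of the GENCODE start, held TTTGAA.

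Of the activating E2F genes, E2f2 fell, and E2f1 and E2f3 did not pass the test. E2f2 (chromosome 4, 136172394 to 136196057, GRCm38) had 133, 122 and 97 counts in Ctrl and 42 and 27 in Confine, or 4.595, 4.61, 4.13, 1.42 and 1.07 CPM. All Ctrl libraries were within a narrow band, and both Confine libraries lay far below it. The mean was 4.44 ± 0.276 CPM (SD, n = 3) in Ctrl and 1.25 ± 0.245 CPM (SD, n = 2) in Confine, with a log2 fold change of -1.83 (standard error 0.32, edgeR adjusted p = 0.000347). E2f1 (chromosome 2, 154559407 to 154569892), the activator with the highest level here, had 70.5, 67.4 and 66.8 CPM in Ctrl and 64.9 and 93.2 CPM in Confine. Its Confine libraries lay on both sides of the Ctrl libraries, and the log2 fold change of 0.21 had a 95% interval from -0.19 to 0.61 (edgeR adjusted p = 0.476). Without Confine replicate 3 it was -0.073, so its sign rests on that library. E2f3 (chromosome 13, 29906575 to 29986063) had 16.7, 18.1 and 14.5 CPM in Ctrl and 15.6 and 14.5 CPM in Confine, with overlapping groups. Its log2 fold change was -0.12, with a 95% interval from -0.54 to 0.30 (edgeR adjusted p = 0.717).

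**Figure D1:**
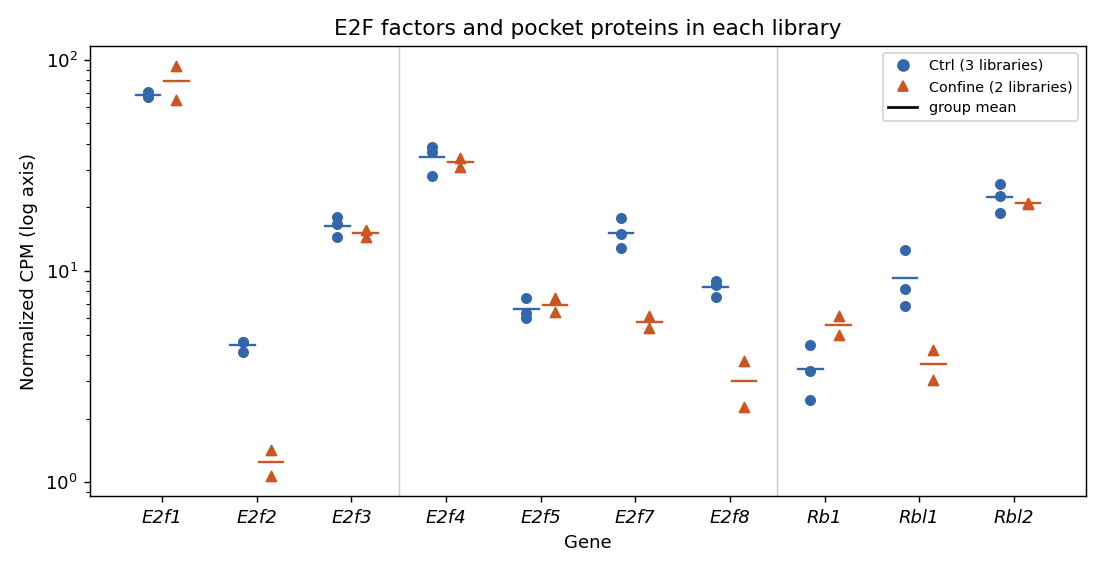
Normalized CPM (log axis) of the 10 genes in each library, with Ctrl libraries as circles, Confine libraries as triangles and group means as bars. Vertical lines part activating E2f genes, repressive E2f genes and pocket protein genes, and E2f2, E2f7, E2f8 and Rbl1 have both Confine libraries below all 3 Ctrl libraries.

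Among the repressive E2F genes, the atypical pair fell and the pocket-binding pair did not pass the test. E2f7 (chromosome 10, 110745439 to 110787384) had 432, 471 and 302 counts in Ctrl and 159 and 155 in Confine, or 14.9, 17.8, 12.8, 5.37 and 6.15 CPM. The lowest Ctrl library was well above the higher of the Confine libraries. The mean fell from 15.2 ± 2.49 CPM (SD, n = 3) to 5.76 ± 0.553 CPM (SD, n = 2), with a log2 fold change of -1.40 (standard error 0.23, edgeR adjusted p = 0.000198). E2f8 (chromosome 7, 48866429 to 48881596), its closest relative, had 261, 228 and 177 counts in Ctrl and 67 and 94 in Confine, or 9.02, 8.62, 7.53, 2.26 and 3.73 CPM. The repeated Confine library was the lower of the Confine pair, and both were well below Ctrl. The mean fell from 8.39 ± 0.771 CPM (SD, n = 3) to 3.00 ± 1.04 CPM (SD, n = 2), with a log2 fold change of -1.49 (standard error 0.28, edgeR adjusted p = 0.000599). E2f8 shares 610 exon bases with Gm2788 on the opposite strand, a transcript averaging 29.6 counts while E2f8 averaged 165.4, and the part of that overlap was not tested.

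E2f4 (chromosome 8, 105297663 to 105305370), the E2F of the DREAM complex, had 38.7, 36.8 and 28.1 CPM in Ctrl and 34.4 and 31.2 CPM in Confine. Both Confine libraries lay within the Ctrl range, and the log2 fold change was -0.076 with a 95% interval from -0.48 to 0.33 (edgeR adjusted p = 0.824). E2f5 (chromosome 3, 14578641 to 14606309), which partners p130 in particular, had 6.32, 7.45 and 5.996 CPM in Ctrl and 7.47 and 6.39 CPM in Confine. The groups overlapped, and the log2 fold change was 0.073 with a 95% interval from -0.43 to 0.57 (edgeR adjusted p = 0.864), changing sign to -0.14 when library size alone replaced TMM.

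Of the pocket protein genes, Rbl1 fell, and Rb1 and Rbl2 did not pass the test. Rbl1 (chromosome 2, 157145893 to 157204534), which encodes p107, the pocket protein of cycling cells, had 238, 334 and 161 counts in Ctrl and 90 and 107 in Confine, or 8.22, 12.6, 6.85, 3.04 and 4.25 CPM. The Ctrl libraries were spread widely, with replicate 2 the highest, and both Confine libraries lay below the lowest of them. The mean was 9.23 ± 3.02 CPM (SD, n = 3) in Ctrl and 3.65 ± 0.854 CPM (SD, n = 2) in Confine, with a log2 fold change of -1.34 (standard error 0.29, edgeR adjusted p = 0.0024). Without the repeated Confine library, which leaves 1 Confine library, it was -1.12 and no longer passed (edgeR adjusted p = 0.0662). Rbl2 (chromosome 8, 91070057 to 91123844), which encodes p130, the pocket protein of resting cells, had 25.8, 18.8 and 22.6 CPM in Ctrl and 21.0 and 20.9 CPM in Confine. Both Confine libraries lay inside the Ctrl range, and the log2 fold change was -0.097 with a 95% interval from -0.51 to 0.32 (edgeR adjusted p = 0.778). Rbl2 shares 693 exon bases with Aktip, which runs antisense to it. Aktip averaged 1424 counts while Rbl2 averaged 583.8, and its log2 fold change was -0.29 (edgeR adjusted p = 0.38).

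Rb1 (chromosome 14, 73183673 to 73325822) was the least abundant of the pocket protein genes in Ctrl, with 71, 118 and 79 counts in Ctrl and 147 and 155 in Confine. This corresponds to 2.45, 4.46, 3.36, 4.97 and 6.15 CPM. Both Confine libraries were above every Ctrl library, with Ctrl replicate 2 the closest to them. The mean was 3.42 ± 1.01 CPM (SD, n = 3) in Ctrl and 5.56 ± 0.84 CPM (SD, n = 2) in Confine. A difference of 0.70 on the log2 scale (standard error 0.29, 95% interval from 0.083 to 1.31) was estimated and did not pass (edgeR adjusted p = 0.097). Without Ctrl replicate 2 it was 0.94 and passed (edgeR adjusted p = 0.0253). Rb1 shares 488 exon bases with Rcbtb2 and 408 with Lpar6, both on the opposite strand. Rcbtb2 averaged 1403.2 counts, while Rb1 averaged 114.0, and fell in Confine with a log2 fold change of -1.15 (edgeR adjusted p = 0.000208), and Lpar6 averaged 133.2 counts and fell with -0.80 (edgeR adjusted p = 0.038). The strand setting used in counting is not given in the sources used here, and the part of these overlaps in the Rb1 counts was not tested.

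For each of the 4 genes that fell, the exact permutation test of the difference in mean log2 CPM (two-sided) gave p = 0.1, the smallest value that 3 libraries against 2 allow, so this design cannot reach 0.05. E2f2, E2f7 and E2f8 passed in all 14 alternative fits, which include DESeq2 and limma-voom.

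**Figure D2:**
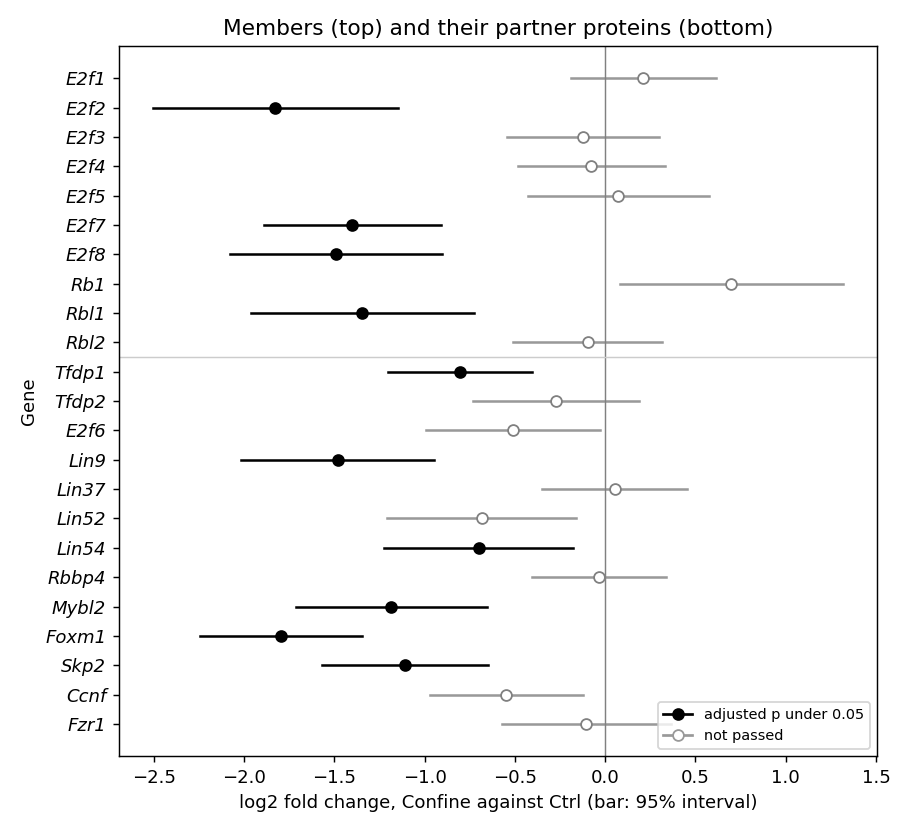
Log2 fold change of Confine against Ctrl (horizontal axis) with its 95% interval for the 10 genes (above the line) and for their partners, the MuvB proteins and the ubiquitin ligases of the family (below it). Filled points passed edgeR's test at an adjusted p under 0.05, and of the 10 genes these are E2f2, E2f7, E2f8 and Rbl1.

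Levels were compared between genes per length, as RPKM, the CPM divided by the length of the merged exons in kilobases. E2f1 had the highest level in Ctrl, 21.6 ± 0.636 RPKM (SD, n = 3), followed by E2f4 with 14.1 ± 2.30 RPKM. After them came E2f5 with 3.70 ± 0.427 RPKM, E2f3 with 3.02 ± 0.331 RPKM and Rbl2 with 2.96 ± 0.466 RPKM, and E2f3 and Rbl2 lay within their spread. E2f7 (1.69 ± 0.276 RPKM), E2f8 (1.54 ± 0.142 RPKM) and Rbl1 (1.54 ± 0.504 RPKM) lay within their spread as well, above E2f2 (0.91 ± 0.0565 RPKM) and Rb1 (0.569 ± 0.167 RPKM). The summed RPKM of the 7 E2f genes was 46.6 ± 3.69 (SD, n = 3) in Ctrl and 46.5 ± 5.05 (SD, n = 2) in Confine. The Confine libraries differed, with 42.96 and 50.1 RPKM, and E2f1 had 20.6 RPKM in the first and 29.6 RPKM in Confine replicate 3. Within this sum, E2f2 took 1.92%, 1.95% and 2.00% in Ctrl and 0.676% and 0.438% in Confine. E2f7 took 3.37% to 4.09% in Ctrl and 1.36% to 1.39% in Confine, and E2f8 took 3.27% to 3.38% in Ctrl and 0.968% to 1.37% in Confine. The share of E2f1 was 44.2% to 50.02% in Ctrl and 47.9% and 59.0% in Confine, with overlapping groups.

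Among the pocket protein genes, Rb1, whose edgeR difference did not pass, made up 7.86%, 13.9% and 11.9% of the pocket protein RPKM in Ctrl and 20.1% and 22.8% in Confine. Rbl1 made up 26.4%, 39.5% and 24.4% in Ctrl and 12.4% and 15.8% in Confine. Rbl2 was the most abundant in every library, with 46.6% to 65.7% in Ctrl and 61.5% to 67.5% in Confine.

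Ratios within a library do not depend on the scaling between libraries, and 9 were compared. Rb1 per Rbl1 was 0.297, 0.352 and 0.489 in Ctrl and 1.63 and 1.44 in Confine. Every Ctrl library had less Rb1 than Rbl1 and both Confine libraries had more. By the difference of mean log2 ratios, used for all 9, the ratio was 4.13 times higher in Confine. The 0.1 of the exact permutation test became 0.225 after Benjamini-Hochberg adjustment over the 9 ratios, as for the other 3 ratios with separate groups. Rbl1 per Rbl2 was 0.402, 0.849 and 0.382 in Ctrl and 0.183 and 0.257 in Confine, or 2.34 times lower. E2f2 per E2f4 was 0.0596, 0.063 and 0.0737 in Ctrl and 0.0207 and 0.0173 in Confine, or 3.44 times lower. The ratio of the summed atypical repressors to the summed activators was 0.126, 0.139 and 0.114 in the Ctrl libraries but 0.0426 and 0.0422 in the Confine libraries, or 2.96 times lower. The ratios of E2f1, E2f3 and E2f5 to E2f4, of E2f7 to E2f8 and of Rb1 to Rbl2 overlapped between the groups, with exact permutation p from 0.3 to 0.7. Exon length shifts a ratio alike in every library and leaves its difference between groups as it is, except where RPKM of several genes are summed.

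**Figure D3:**
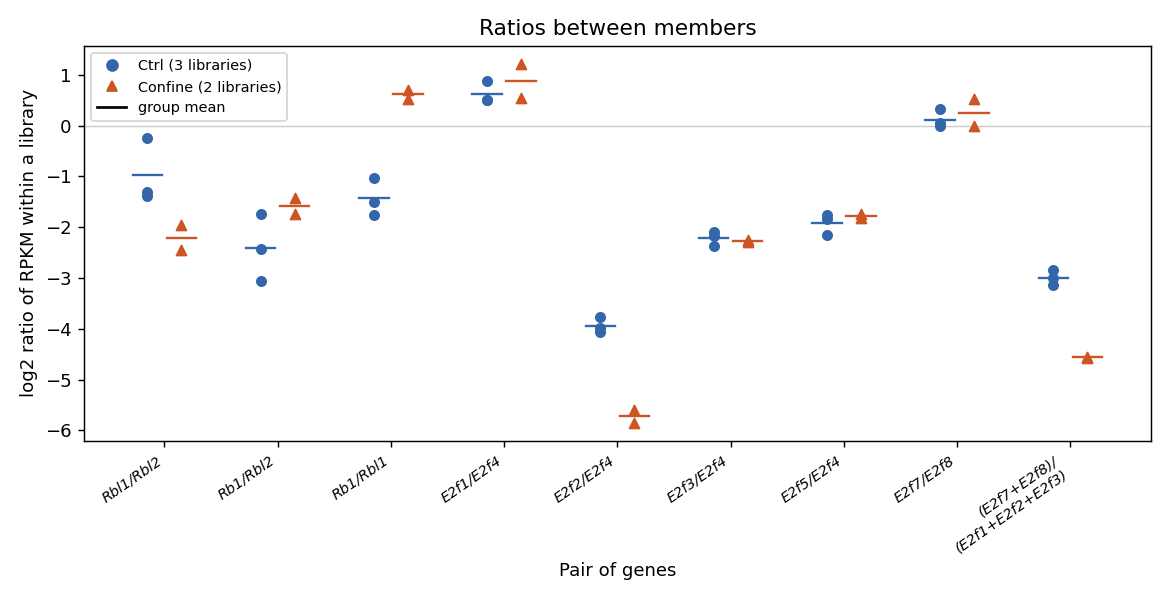
Log2 ratio of RPKM between members within each library (vertical axis) for 9 pairs, with Ctrl libraries as circles, Confine libraries as triangles and group means as bars. Rb1/Rbl1 lies below 0 in all 3 Ctrl libraries and above 0 in both Confine libraries.

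Of the dimer partners and E2f6, 1 of 3 genes passed as lower and 2 did not pass, beside 10.2% of all tested genes lower. In all 3 both Confine libraries lay below every Ctrl library, as in 23.6% of all tested genes. Tfdp1, which encodes the main dimer partner DP1, fell from 79.0 ± 9.11 CPM (SD, n = 3) to 45.2 ± 5.13 CPM (SD, n = 2), with a log2 fold change of -0.81 (standard error 0.19, edgeR adjusted p = 0.00427). Without Confine replicate 3 it was -0.70 and did not pass (edgeR adjusted p = 0.108). Tfdp2, the second dimer partner, had a log2 fold change of -0.27 (95% interval from -0.73 to 0.19), and E2f6, a repressor that works without pocket proteins, had -0.51 (edgeR adjusted p = 0.12). E2f6 passed in 3 of the 14 alternative fits. These were library size alone (-0.72), leaving out Ctrl replicate 3 (-0.67) and the identical columns counted as 2 samples (-0.57).

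Of the 5 MuvB genes and the factors B-Myb (Mybl2) and Foxm1 that MuvB binds in dividing cells, 4 of 7 fell and 0 rose. Their median log2 fold change was -0.70. Over all tested genes, 10.2% were lower and 12.8% higher. Foxm1 fell from 35.5 ± 5.47 to 10.2 ± 1.45 CPM, with a log2 fold change of -1.80 (standard error 0.21, edgeR adjusted p = 5.58e-06). Lin9, which couples MuvB to B-Myb, fell from 10.8 ± 1.80 to 3.87 ± 0.699 CPM, with a log2 fold change of -1.48 (standard error 0.25, edgeR adjusted p = 0.000272). Mybl2 had a log2 fold change of -1.18 (edgeR adjusted p = 0.00189), which became -1.01 with an adjusted p of 0.0619 in edgeR without the repeated Confine library. Lin54, the DNA-binding subunit, passed narrowly with -0.70 (edgeR adjusted p = 0.0498) and did not pass in 10 of the 14 alternative fits, so that 2 of the 7 genes were lower without the repeated Confine library. Lin52 had -0.68 (edgeR adjusted p = 0.0565), Lin37 0.052 and Rbbp4 -0.036, and these 3 did not pass. Of the ubiquitin ligase genes that act on the family, Skp2, which targets p130, fell with a log2 fold change of -1.11 (edgeR adjusted p = 0.000961). Ccnf, cyclin F, had -0.55 (edgeR adjusted p = 0.0586) and passed in 8 of the 14 alternative fits, and Fzr1 had -0.10 (edgeR adjusted p = 0.789).

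Of the 8 cyclins and kinases that phosphorylate pocket proteins, 3 fell and 0 rose, beside 10.2% of all tested genes lower and 12.8% higher. The 3 were Ccne1 with a log2 fold change of -1.43, Ccne2 with -0.70 and Ccnd1 with -0.67. Ccne1 passed in every alternative fit, and the number of genes lower in this list ranged from 1 without Ctrl replicate 1 or the repeated Confine library to 6 without Ctrl replicate 2. With library size alone it was 6 as well. Of the 7 CDK inhibitors, 6 were tested, 3 rose and 0 fell, beside the same 12.8% higher and 10.2% lower of all tested genes. Cdkn1a, which encodes p21, rose from 292 ± 59.8 CPM (SD, n = 3) to 1967 ± 66.3 CPM (SD, n = 2), with a log2 fold change of 2.75 (standard error 0.20, edgeR adjusted p = 1.25e-08), and passed in every alternative fit. Cdkn2a (log2 fold change 0.91) and Cdkn1b (0.73) did not pass without Ctrl replicate 1 or without Confine replicate 3, when 1 inhibitor was higher, and Cdkn1b did not pass in 6 of the 14 alternative fits. Of the 9 co-repressor genes that pocket proteins recruit, Suv39h1 (-0.97) and Rbbp7 (-0.90) fell, Kdm5a (0.68) rose and 6 did not pass, beside 10.2% of all tested genes lower and 12.8% higher. Kdm5a did not pass with library size alone, without Ctrl replicate 1 or without either Confine library, and Rbbp7 did not pass without Confine replicate 3 (edgeR adjusted p = 0.0549).

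Of 36 genes that E2F factors switch on for DNA replication at G1/S, 35 fell and 0 rose, with a median log2 fold change of -1.44 and a range from -2.10 to -0.55. The strongest changes were in Mcm10 (-2.10), Mcm5 (-2.04) and Mcm2 (-1.95), of which Mcm2 and Mcm5 encode subunits of the replicative helicase and Mcm10 acts in its activation, and Msh6, named after its value was seen, did not pass (-0.55, edgeR adjusted p = 0.0626). Of 26 genes of G2 and mitosis that DREAM and MuvB control, 26 fell, with a median of -1.63 and a range from -2.19 to -1.15, led by the kinesin Kif20a (-2.19), cyclin B2 (Ccnb2, -1.98) and the kinesin Kif11 (-1.97). Ccne1 and Ccne2 are counted among the G1/S genes as well as the cyclins. In each of these 62 entries both Confine libraries lay below all Ctrl libraries, as in 23.6% of all tested genes. The share of all tested genes that passed as lower was 10.2%. Both lists were chosen with earlier results of these data known, so their counts are a description. An E2F spelling was in the promoter window of 14 of the 28 G1/S genes that have one and of 1 of the 21 G2/M genes. TTTGAA was in that of 4 of the 28 and of 15 of the 21.

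**Figure D4:**
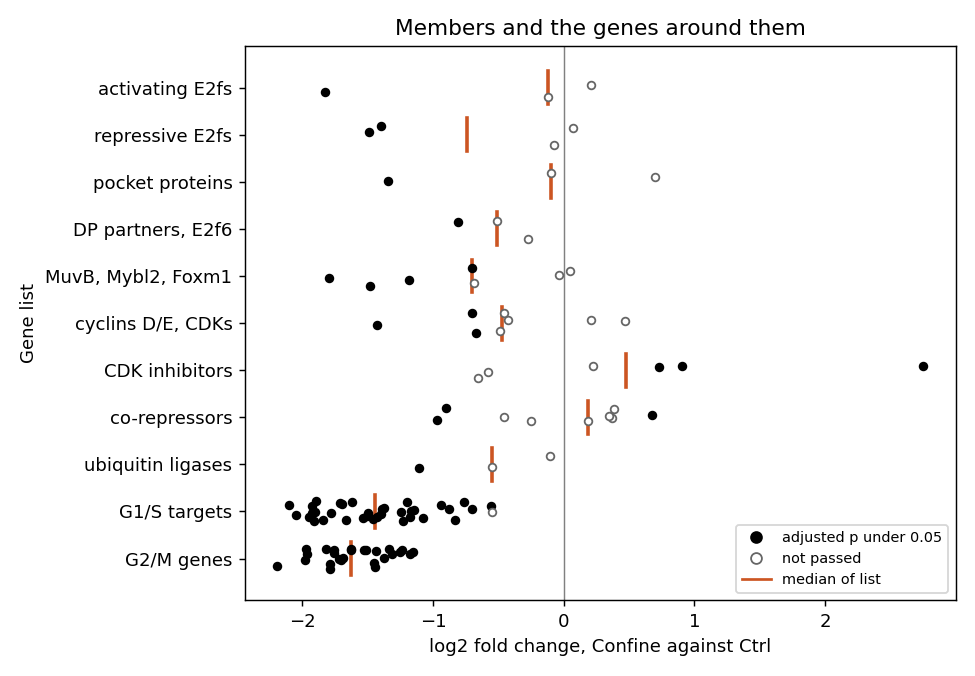
Log2 fold change of Confine against Ctrl (horizontal axis) for each tested gene of the lists (rows), with filled points for an adjusted p under 0.05 and a bar at the median of each list. The G1/S and G2/M rows lie below 0 throughout, from -2.19 to -0.55, while the 3 rows of members hold both genes that fell and genes near 0.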

How the data were processed

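RNA-seq libraries were made by the authors from polyadenylated RNA with a dUTP-marked second strand. The authors deposited raw counts per gene, and their processing notes name Trim Galore 0.6.10, HISAT2 2.1.0, SAMtools 1.5, featureCounts and mm10. The annotation and strand setting are not given in the sources used here, so reads where genes overlap may be split or dropped. Nothing states that replicates came from separate cultures, so p-values measure the spread between these libraries, which may be technical. Columns not used numbered 0.

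Symbols, positions and merged exon lengths came from GENCODE M21 (GRCm38), which shares 55154 of 55335 identifiers without version. The members and gene lists were chosen with earlier results of these data known. Genes named are all members, partners, MuvB genes and ligases, plus the 3 passed genes with the largest change in each other list and, where at most 3 moved against its majority, those. Genes kept by filterByExpr (15881) were tested with edgeR 4.0.16 in R 4.3.3 after TMM, without a block, with 3 residual degrees of freedom. The standard error is the log2 fold change divided by the root of F, and 95% intervals use edgeR's total degrees of freedom. Where a fit left 1 Confine library, it is assumed to vary like Ctrl. The method was tested on simulated data with changes larger than those of the members, so that test does not cover effects of their size. Alternatives were DESeq2 1.42.0, limma-voom (limma 3.58.1), other scalings and filters, the block, and leaving out each library. One list of target genes is not reported here.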

Additional observations from a re-analysis of the deposited data

How the results depend on the processing

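Across the alternatives, the 4 members lower in Confine stayed at 4, except at 3 without the repeated Confine library and at 1 with the cutoff on the fold change. Unless stated, the cause of a change was not tested.

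Directions changed in members near 0. E2f5 had a log2 fold change of -0.14 with library size alone, a scaling that moved the median of all genes by -0.21, and E2f4 had 0.025 and Rbl2 0.024 with the replicate block as number 2. Over the fits that each left out 1 library, E2f1 ranged from -0.073 to 0.45, E2f4 from -0.22 to 0.0088, E2f5 from -0.041 to 0.18, Rbl2 from -0.21 to 0.013, Rb1 from 0.50 to 0.94 and Rbl1 from -1.60 to -1.06. E2f5 was -0.0068 without Ctrl replicate 3.

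The repeated Confine library carries the numbers 1 and 2 in the table, so the replicate block was fitted with each. The difference between replicates within Ctrl was compared across genes with the difference between the same-numbered replicates within Confine. Their correlation was -0.053 with number 2 and 0.052 with number 1, which gives little sign that the numbers pair the libraries. With the replicate block and number 1, Rb1 passed at 0.94 (edgeR adjusted p = 0.0118), making 1 member higher. The block left 1 residual degree of freedom, so its p-values draw on a spread pooled over genes.

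Other list counts moved. Cyclins and kinases lower were 6 with library size alone, 1 and 6 with the replicate block as number 2 and 1, and 5 with the identical columns counted as 2 samples, when 1 was higher. CDK inhibitors lower were 1 in place of 0 with library size alone, with no filter, with the block as number 1 and with the identical columns as 2 samples, and those higher were 1 in place of 3 with the block as number 2. Co-repressors higher were 0 with library size alone and the block as number 2, 2 with the block as number 1 and 3 with the identical columns as 2 samples. Leaving out each library gave 0 to 1 members higher, 2 to 4 MuvB-list genes lower, 1 to 6 kinases lower and 0 to 1 higher, 0 to 1 inhibitors lower and 1 to 3 higher, and 1 to 3 co-repressors lower and 0 to 1 higher. All tested genes lower and higher numbered 1619 and 2035, against 2805 and 1444 with library size alone, 2456 and 2690 with the identical columns as 2 samples, 1080 and 1448 with the block as number 2 and 2293 and 2640 with it as number 1. With a library left out, 850 to 2015 were lower and 1196 to 2411 higher. Counts limit Rb1 and E2f2, with at most 155 counts in a library.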

Other observations

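Across all tested genes with a RefSeq promoter window, a comparison chosen after the members' promoters had been seen, 100 of 483 genes with an E2F spelling in the window were lower in Confine (20.7%) and 44 were higher (9.11%). Of the 9820 genes without it, 10.7% were lower and 13.8% higher. The median log2 fold change was -0.16 with the spelling and -0.0095 without it. Of 1494 genes with TTTGAA, 16.0% were lower and 11.4% higher, and of the 77 genes with both, 25.97% were lower and 11.7% higher. Of the 8403 genes with neither, 9.91% were lower and 14.2% higher. These shares are a description of the libraries and were not tested, and the genes include the G1/S and G2/M lists.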
